A study of Homo sapiens with 7 samples.

Results

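The gene-dense windows are the 250-kb stretches of the human autosomes that carried 8 or more distinct gene names on the larger of the array designs used here, after removal of empty names, names equal to a probe's own identifier or position, and names that only state a position. By this rule 589 of 10665 autosomal windows with a probe (5.52%) were gene-dense, and all 589 had enough probes to be measured on every array of that design. The names came from the array annotation, and the rule used no timing value, although it was chosen with earlier results of these data known. The study measured replication timing in K562, a human myelogenous leukaemia line that grows in suspension, and in U2OS, a human osteosarcoma line that grows attached. Cells took up the thymidine analogue BrdU at 50 µM for 2 h and were stained for DNA content, and 80000 cells were sorted by that content into fractions from the first and the last part of S phase. BrdU-labelled DNA was immunoprecipitated and put through whole genome amplification, after which early DNA carried Cy3 and late DNA carried Cy5 on every array. The groups on the larger design were K562 sorted with a new method (n = 1), K562 sorted with the old method (n = 1), and U2OS in 2 sets of 2 arrays, called manual and automated. A further K562 array of a smaller design, labelled 44k, was used for no call and is given beside the results. The labels do not say whether its DNA was independent of that on the other K562 arrays. No treatment separated the groups, all share the same pulse, and both lines are long-established tumour lines. The labels do not say whether the arrays of a group came from separate cultures, so each p-value measures the spread between arrays, which may be technical.

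Replication timing is the order in which chromosome segments are copied during S phase. Segments rich in genes, GC bases and open chromatin are usually copied early, from many origins that fire near the start of S phase, while gene-poor heterochromatin at the nuclear lamina is copied late. Domains that hold tissue-restricted genes can switch between early and late in different cell types, and in many of those domains early copying accompanies an active state. Timing is given here as log2 of early over late signal, the mean over a window's probes, set to 0 at each array's median probe. A value above 0 is called early and a value below 0 late, both relative to that array.

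The sequences below show what the arrays read in the windows on which the results turn. Each is the deposited probe of the named gene that lies nearest the centre of its window, 5′ to 3′, with CG dinucleotides, the sites of DNA methylation in human cells, in capitals. CSN3 and SPINK6 lie in windows that were late on every array, IDH3A lies in the earliest window, LIPI and FPR1 lie in windows that were earlier in K562, and FLG lies in a window that was later in K562.
CSN3, hg19 chr4:71110553-71110610: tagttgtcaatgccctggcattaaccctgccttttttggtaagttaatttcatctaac
SPINK6, hg19 chr5:147589232-147589291: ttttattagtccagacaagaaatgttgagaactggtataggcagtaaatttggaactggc
IDH3A, hg19 chr15:78442369-78442418: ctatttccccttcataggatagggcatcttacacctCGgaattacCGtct
LIPI, hg19 chr21:15579210-15579269: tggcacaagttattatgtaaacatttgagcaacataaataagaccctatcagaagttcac
FPR1, hg19 chr19:52252608-52252667: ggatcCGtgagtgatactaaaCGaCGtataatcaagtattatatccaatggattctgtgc
FLG, hg19 chr1:152287147-152287206: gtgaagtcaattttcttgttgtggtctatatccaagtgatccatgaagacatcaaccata
Read singly, the CSN3 probe gave log2 ratios from -3.23 to -1.35 over the 6 arrays, and the IDH3A probe gave 0.74 to 2.35. The FLG probe ran from -0.97 to 1.55 and the LIPI probe from -3.28 to 1.47, with the cell lines at opposite ends.

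Upstream sequences show how unlike the genes of such windows can be. The 250 bases before the RefSeq start of 4 genes follow, from the GRCh38.p14 table, with CG again in capitals. KRTAP19-3, a keratin-associated protein of hair, and CSN3, the kappa casein of milk, come from the pair of latest windows; IDH3A, a subunit of the mitochondrial isocitrate dehydrogenase, comes from the earliest; FLG, which encodes the skin barrier protein filaggrin, comes from a window that was late in K562 and early in U2OS.
KRTAP19-3, minus strand, GRCh38.p14 chr21:30492014-30492263: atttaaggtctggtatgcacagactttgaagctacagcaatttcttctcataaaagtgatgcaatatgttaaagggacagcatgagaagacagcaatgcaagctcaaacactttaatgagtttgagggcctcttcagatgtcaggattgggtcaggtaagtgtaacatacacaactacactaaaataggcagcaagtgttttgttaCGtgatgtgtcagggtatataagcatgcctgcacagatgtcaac
CSN3, plus strand, GRCh38.p14 chr4:70238131-70238380: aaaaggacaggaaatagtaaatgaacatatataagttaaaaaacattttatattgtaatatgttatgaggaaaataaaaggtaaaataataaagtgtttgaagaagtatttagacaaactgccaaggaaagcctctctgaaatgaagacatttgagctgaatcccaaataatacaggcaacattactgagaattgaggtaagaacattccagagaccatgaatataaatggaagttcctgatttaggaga
IDH3A, plus strand, GRCh38.p14 chr15:78149112-78149361: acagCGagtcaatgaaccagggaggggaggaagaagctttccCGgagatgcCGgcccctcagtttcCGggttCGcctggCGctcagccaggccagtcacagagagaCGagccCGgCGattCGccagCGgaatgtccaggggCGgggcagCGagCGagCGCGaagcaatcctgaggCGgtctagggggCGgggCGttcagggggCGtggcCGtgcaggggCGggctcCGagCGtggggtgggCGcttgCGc
FLG, minus strand, GRCh38.p14 chr1:152325240-152325489: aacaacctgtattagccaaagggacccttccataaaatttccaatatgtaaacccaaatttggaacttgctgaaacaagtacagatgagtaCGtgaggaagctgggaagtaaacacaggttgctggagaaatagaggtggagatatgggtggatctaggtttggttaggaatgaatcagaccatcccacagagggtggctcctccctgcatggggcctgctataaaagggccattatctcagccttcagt
The letters CG, which read the same on both strands, occur 26 times upstream of IDH3A, 1 time each upstream of KRTAP19-3 and FLG, and 0 times upstream of CSN3. Of the 27305 promoters in the table, each 300 bases long, 56% held CG at least 10 times. The table had a promoter for 3538 of the 4528 matched symbols in gene-dense windows (78.1%), which was too few for a count over the set, so none is given.

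Gene-dense windows held a median of 9 names, and 181 of them held exactly 8. The fullest, with 26 names, was chr6:31500001-31750000 in the class III region of the major histocompatibility complex, which carries TNF, LTA and LTB, cytokines of the tumour necrosis factor family, among the names from DDX39B to VARS. It was early on every array, at 0.89 and 0.30 in K562 (new and old sorting), 1.32 and 0.99 on the manual U2OS arrays and 1.13 and 1.14 on the automated ones, as log2 of early over late signal. The label was checked against the RefSeq gene table. Of 5750 distinct names in these windows, 4536 (78.9%) matched a RefSeq symbol or synonym, and 767 of the 1214 that did not match were Ensembl transcript identifiers. Counted by matched names alone, 295 of the 589 windows still reached 8, and the median was 8 against 1 in the other autosomal windows. The windows were gene-rich by both counts, although many reached the minimum only through names that did not match.

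Along the genome, the gene-dense windows formed 365 runs of neighbouring windows, of which 246 were a lone window. The longest run had 8 windows, at chr11:64500001-66500000. Chromosome 19 held 95 of them, 43% of its measured windows, followed by chromosome 1 with 63, chromosome 17 with 53 and chromosome 11 with 46, whereas chromosome 18 had 0 and chromosome 13 had 2. Within 5 Mb of the outermost probe of a chromosome lay 20.2% of gene-dense windows and 7.44% of the others. A gene-dense window had a median of 21 probes against 16 elsewhere. Median probe GC content was 37.6% in gene-dense windows and 36.4% elsewhere.

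Gene-dense windows replicated early on every array. Their median log2 ratio was 1.11 in K562 after new sorting, 0.73 after old sorting, 1.14 and 1.0 in manual U2OS, and 1.21 and 1.26 in automated U2OS. The other autosomal windows had medians from -0.87 to -0.40, so the members' medians were all above those of the rest. The difference between the medians was 1.64 ± 0.31 (SD, n = 6 arrays) and was positive on 6 of 6 arrays, with its extremes in K562, 1.13 after old sorting and 1.98 after new sorting. An exact two-sided sign-flip test over the 6 arrays gave p = 0.0312, the smallest value that this number of arrays allows. The size depended on the processing: the mean difference was 0.97 with normexp background correction, 0.75 with uncorrected signals and 0.82 without dim probes, with the same sign and p in each. On the smaller K562 array the gene-dense median was 0.57 and the difference 0.47.

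**Figure D1:**
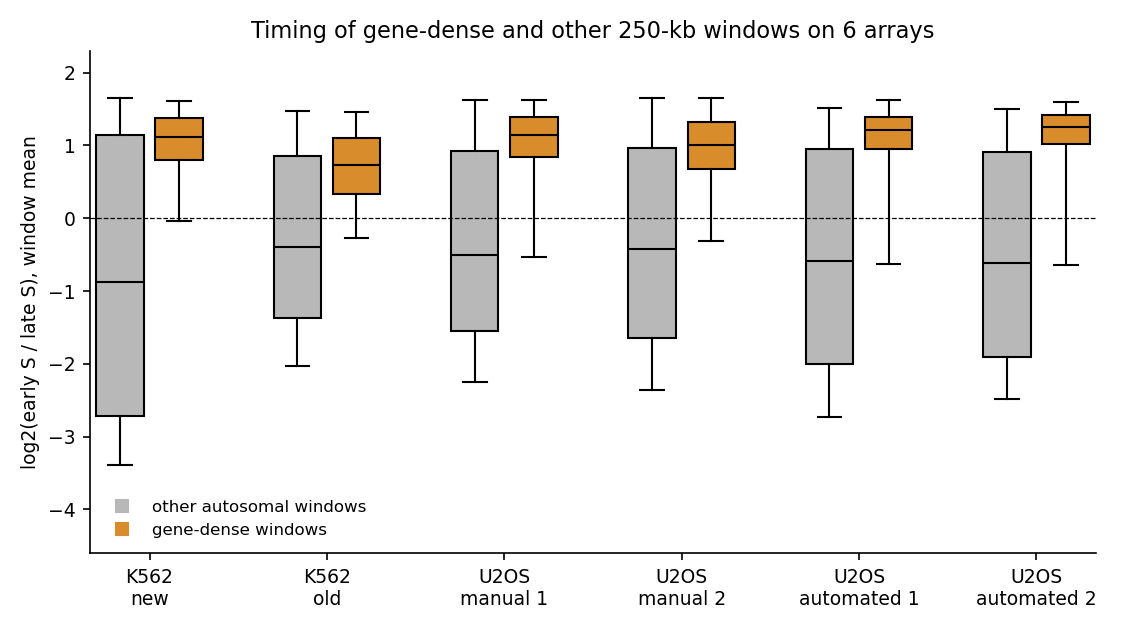
Window means of log2(early S / late S) on the vertical axis for each of 6 arrays; boxes span the quartiles with the median as a line, and whiskers reach the 5th and 95th percentiles. On every array the gene-dense box (orange) lies above 0, while the box of the other autosomal windows (grey) spans 0.

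Gene-dense windows also varied less among themselves than the rest. The SD over windows was 0.60 to 0.71 on the 6 arrays for gene-dense windows, against 1.19 to 1.88 for the others. Single gene-dense windows still reached from -3.14 to 1.89 on the new-sorting K562 array. Early on all 6 arrays were 498 of 589 gene-dense windows (84.6%), where 31.3% of all 11175 windows measured on chromosomes 1 to 22 and X were. Without dim probes the share was 46.6% of the 356 gene-dense windows left. Late on all 6 were 19 (3.23%), where 42% of all windows were. The remaining 72 gene-dense windows had a value on each side of 0. With limma, 524 gene-dense windows had a mean over the 6 arrays above 0 at an adjusted p under 0.05, against 33.4% of all windows, and 25 had a mean below 0, against 46.5% of all windows.

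More names did not bring a window ever earlier. Among autosomal windows with no usable name, the median was -1.89 in K562 and -1.89 in U2OS (means of the arrays' medians), and in windows with 2 or 3 names it was -0.16 and -0.070. It had reached 0.98 and 0.92 in windows with 4 or 5 names, and 1.07 and 1.16 in windows with 6 or 7. Beyond that the arrays took different courses. In K562 the median was 1.0 at 8 or 9 names, 0.89 at 10 to 12 and 0.66 at 13 to 26, while in U2OS it was 1.17, 1.16 and 1.06. The fall in K562 appeared on both arrays, from 1.20 to 0.90 with the new sorting and from 0.80 to 0.42 with the old sorting. The U2OS arrays were not alike. Over the same classes the manual ones went from 1.14 to 1.05 and from 1.07 to 0.87, and the automated ones from 1.22 to 1.13 and from 1.24 to 1.20. Across the threshold of the rule itself there was no step: the 302 windows with exactly 7 names had medians of 1.01 in K562 and 1.17 in U2OS, and the 181 with exactly 8 had 0.98 and 1.18. No test was made across these classes.

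**Figure D2:**
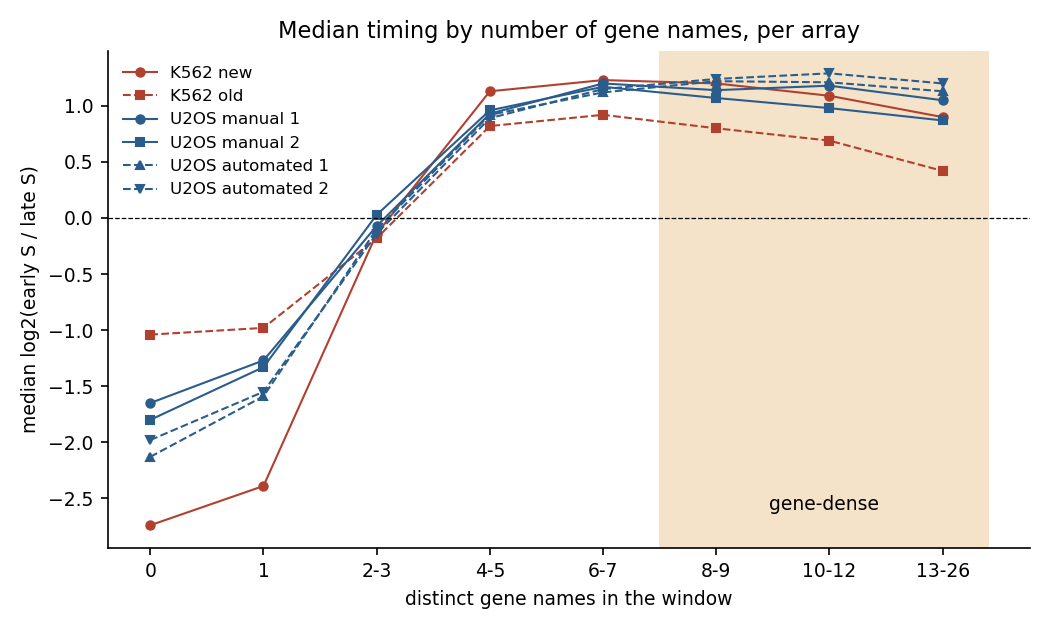
Median log2(early S / late S) of autosomal windows, by the number of distinct gene names they hold, with a line per array; K562 is red, U2OS is blue, and the shaded classes are gene-dense. All 6 lines rise from medians of -2.74 to -1.04 at 0 names to a plateau at 6 or 7 names. The K562 and manual U2OS lines are lower again at 13 to 26 names.

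Signal strength differed between the arrays. The share of probes in gene-dense windows whose late channel was well above background was 34.9% in K562 after new sorting and 59.6% after old sorting. In U2OS it was 42.4% and 18.9% for the manual pair and 91.7% and 92.2% for the automated pair. The early channel was well above background at 50% of such probes in K562 after old sorting, and at 80.6% to 99.5% on the others. The ratio of a probe with a channel near background is imprecise, and the part of this in the levels above was not tested. Over whole arrays, 33.9% to 90.6% of probes were well above background in both channels, and 8.79% on the smaller K562 array.

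Probe base composition moved with gene number as well. With autosomal windows split into 5 equal classes by probe GC, 390 of the 589 gene-dense windows fell in the highest class, above 37% GC. Within that class the gene-dense median exceeded that of the other windows by 0.46 to 0.76 on the 6 arrays. In the 4 lower classes the excess was 1.34 or more on every array, and reached 2.71 on the new-sorting K562 array in the lowest class. The other windows of the highest GC class were themselves early, with a median of 0.43 over the arrays, against -0.60 to -0.89 in the lower classes.

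Neighbouring windows had similar values. At 250 kb on either side of a gene-dense window that was early on all 6 arrays the median was 1.15 and 1.14, close to the 1.12 of the windows themselves, and at 2000 kb it was 0.94 and 0.89. Of the 19 gene-dense windows that were late on all 6 arrays, 16 had a late window on both sides and 3 on 1 side, judged by the mean over arrays. Their own median was -1.19, and 250 kb away it was -1.17 before and -0.72 after. At 2000 kb on either side the median was 0.56 and 0.70, with 7 windows late on each side.

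Chromosome 19 supplied 95 gene-dense windows, and they were less early than the 494 elsewhere. The medians on chromosome 19 were 0.83 and 0.49 in K562 (new and old sorting), 0.79 and 0.65 on the manual U2OS arrays, and 1.02 and 1.04 on the automated ones. Elsewhere they were 1.17, 0.77, 1.19, 1.08, 1.25 and 1.29 in the same order, so the chromosome 19 value was lower on all 6 arrays. The 28 chromosome 19 windows with at least 2 zinc finger genes had medians of 0.77 and 0.72 in K562 and 0.27 to 0.61 in U2OS, and the other 67 had 0.84 and 0.48 in K562 and 0.66 to 1.12 in U2OS. Those with zinc finger genes were thus lower on all 4 U2OS arrays but not on the old-sorting K562 array. No test was made of these differences.

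The windows that were late on every array held zinc finger clusters (6 of 19), other gene clusters and mixed sets of genes. Among them were genes for hair keratin-associated proteins, caseins and salivary proteins, skin protease inhibitors, cornified envelope proteins and membrane proteins of the MS4A family. Another late window, ZNF713 to CHCHD2, was picked here after its values were seen. It held broadly expressed genes such as CCT6A, a subunit of a cytosolic chaperonin, and MRPS17, a mitochondrial ribosomal protein. Its values were -0.10 and -0.084 in K562, -0.65 and -0.61 on the manual U2OS arrays and -0.91 and -1.25 on the automated ones. On the smaller K562 array it read 0.06. Means of the 19 windows over the 6 arrays ran from -2.21 to -0.40, with a median of -1.19. All 19 passed limma's test against 0 on the same values that picked them (adjusted p from 4.17e-05 to 0.0355). The 19 windows held 8 to 17 names each, and 9 of them held exactly 8. Only 2 of the 19 reached 8 when RefSeq-matched names alone were counted, where 295 of all 589 did. On the smaller K562 array, which was not used to find them, 15 of the 19 were below 0, where 8.83% of gene-dense windows were. How many stayed late depended on the centre and the probes: 11 of the 19 were late on all arrays with each array centred on its median window, and 10 of the 18 that could be measured without dim probes. Probe GC ran from 35.2% to 39.2% with a median of 36.2%, against 37.7% in the gene-dense windows early on all arrays.

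**Figure D3:**
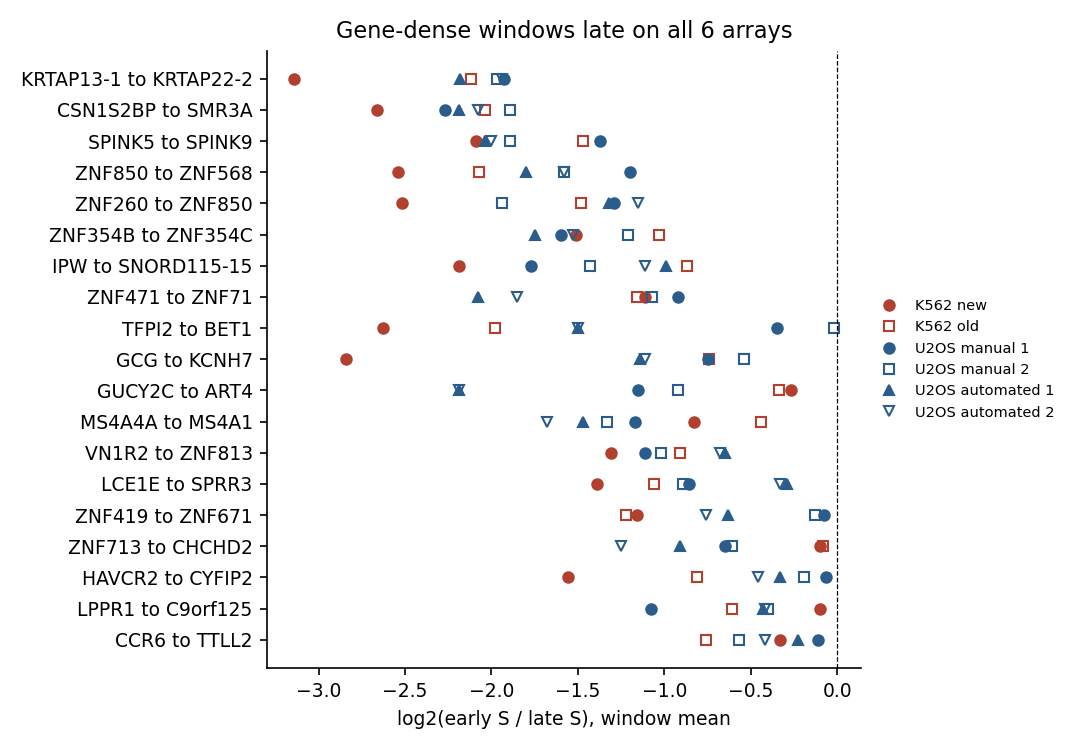
Window mean of log2(early S / late S) on the horizontal axis for the 19 gene-dense windows that were late on all 6 arrays, each named by the outermost RefSeq-matched genes it holds; K562 arrays are red and U2OS arrays blue. All points lie below 0, and the lowest, at -3.14, is the new-sorting K562 array in the KRTAP13-1 to KRTAP22-2 window.

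The latest was chr21:31750001-32000000, which holds KRTAP13-1, KRTAP15-1, KRTAP19-3 and further keratin-associated protein genes, whose products cross-link keratins in the hair shaft. It read -3.14 and -2.12 in K562 (new and old sorting) and -1.93, -1.97, -2.18 and -1.94 in U2OS (manual, then automated). The new-sorting K562 array was lower than the rest, and both windows beside it were as late, at -2.26 and -2.11. Another cluster of the same family behaved otherwise. The window chr17:39250001-39500000, with KRTAP4-5 to KRTAP17-1, was early on all 6 arrays with a mean of 0.97, and the 5 keratin windows (at least 2 KRT names) were all early, with means from 0.99 to 1.61.

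Milk and saliva genes made up the next latest. The window chr4:71000001-71250000 holds CSN3, ODAM (an enamel-associated protein), SMR3A (a submaxillary gland protein) and CABS1, and read -2.66, -2.04, -2.27, -1.89, -2.19 and -2.08 in the order just given. The groups overlapped, and the cell lines did not differ by limma (K562 minus U2OS -0.24, SE 0.26, adjusted p = 0.569). The window chr5:147500001-147750000 holds 6 SPINK genes, from SPINK5, which encodes a skin inhibitor of kallikrein proteases, to SPINK9. Its values were -2.09, -1.47, -1.37, -1.89, -2.04 and -2.0, again without separation of the lines. Kallikrein genes, on chromosome 19, lay in 2 gene-dense windows that were early on all 6 arrays, with means of 1.18 and 0.94.

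Zinc finger genes, which encode DNA-binding repressors that largely act on repeated elements, were the most frequent family. At least 2 of them occurred in 48 gene-dense windows, of which 28 were early on all 6 arrays (background 31.3%) and 6 were late on all 6 (background 42%). Among all 589 gene-dense windows these counts were 498 and 19. The largest late stretch was the pair chr19:37000001-37500000, from ZNF260 to ZNF568, with values of -2.52 and -2.54 in K562 after new sorting, -1.48 and -2.07 after old sorting, and -1.94 to -1.15 on the U2OS arrays. The window chr5:178250001-178500000 holds ZNF354B, ZFP2, ZNF454 and GRM6, a glutamate receptor of retinal bipolar cells, and ran from -1.75 to -1.03 over the arrays. The window chr19:57000001-57250000, with ZNF471, ZFP28 and ZNF71, read -1.11 and -1.16 in K562, -0.92 and -1.07 on the manual U2OS arrays and -2.08 and -1.85 on the automated ones, which were the latest there. The 47 windows with 2 or more zinc finger genes but fewer than 8 names had a median of -0.65, and 18 of them were late on all 6 arrays.

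Among the remaining late windows, chr15:25250001-25500000 holds the imprinted non-coding transcript IPW and copies of SNORD115, a brain small nucleolar RNA, in the Prader-Willi region. It read -2.19 and -0.87 in K562, -1.77 and -1.43 on the manual U2OS arrays and -0.99 and -1.11 on the automated ones. Of its 11 names only 2 matched RefSeq, and repeated copies can share probe signal. The window chr2:163000001-163250000 holds GCG, the glucagon gene, FAP, a fibroblast surface protease, and IFIH1, a sensor of viral RNA, and read -2.84 with the new sorting but -0.74 with the old sorting in K562, and -1.14 to -0.54 in U2OS. The window chr11:60000001-60250000 holds MS4A1, which encodes the B-cell antigen CD20, and 5 more MS4A genes, and its values ran from -1.68 to -0.44. The window chr12:14750001-15000000 mixes GUCY2C, an intestinal guanylate cyclase, with the histone genes HIST4H4 and H2AFJ and with WBP11, a splicing factor. It was barely late in K562, at -0.27 and -0.34, and later in U2OS, at -1.15, -0.92, -2.19 and -2.19, without passing the cell-line test (adjusted p = 0.0719).

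The window chr7:93500001-93750000, with TFPI2 (an inhibitor of coagulation proteases), GNGT1, GNG11 and BET1, was late in all libraries but to very unequal degree. It read -2.63 and -1.98 in K562, -0.35 and -0.020 on the manual U2OS arrays, and -1.50 on both automated arrays. Manual and automated U2OS arrays did not overlap, and the automated value was lower by limma (automated minus manual -1.31, SE 0.18, adjusted p = 0.0077, but 0.0539 without the first automated array).

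At the other end, the 5 earliest windows held a mixture of broadly expressed and specialised genes. The earliest was chr15:78250001-78500000, with IDH3A, CIB2, TBC1D2B and ACSBG1, an acyl-CoA synthetase, at 1.73 and 1.77 in K562 and 1.74, 1.88, 1.96 and 1.68 in U2OS. The lines overlapped, and no array stood apart. The others were chr1:110000001-110250000 (GNAI3, a G-protein subunit, AMPD2 and GSTM genes), chr6:2750001-3000000 (SERPINB1, SERPINB6 and SERPINB9, intracellular protease inhibitors), chr6:42000001-42250000 (CCND3, a G1 cyclin, and TAF8, a subunit of a basal transcription factor) and chr17:38750001-39000000 (SMARCE1, a chromatin remodelling subunit, with KRT10 and 5 more KRT genes). The lowest single value among these windows was 1.21, in the CCND3 window on the old-sorting K562 array. In the GNAI3 window K562 read 1.59 and 1.34, below all U2OS values (1.64 to 1.87), without passing the cell-line test (adjusted p = 0.456 by limma), and in the other windows the lines overlapped.

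Several families were early throughout. All 12 windows with 2 or more solute carrier genes were early on all 6 arrays, with means from 0.65 to 1.43, and so were all 4 with cytochrome P450 genes, all 3 with chemokine genes, all 3 with carcinoembryonic antigen or pregnancy glycoprotein genes, both HLA windows and the 3 windows of the whey acidic protein group. The share early on all 6 arrays was 31.3% over all windows but 84.6% over gene-dense windows, so these small counts do not set the families apart from other gene-dense windows. Mixed families included the taste receptors, with 2 windows at means of 0.21 and 0.63 that were early on some arrays only, and the protocadherins. The PCDHB4 to PCDHGA1 window, with adhesion proteins of neurons, had a mean of -0.64, while the PCDH1 to NDFIP1 window had 1.53. The lone window with 2 olfactory receptor genes, from OR14J1 to MAS1L, had a mean of -0.60.

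K562 and U2OS did not differ detectably in the overall timing of gene-dense windows. The median was 0.92 ± 0.27 in K562 (SD, n = 2) and 1.15 ± 0.11 in U2OS (SD, n = 4), a difference of -0.23 (exact two-sided permutation test over the 6 arrays, p = 0.2; with 2 arrays against 4 it cannot go below 0.0667). Leaving out an array moved the difference from -0.042, without the old-sorting K562 array, to -0.42, without the new-sorting one. It was -0.096 with normexp, and -0.31 (p = 0.0667, exact permutation) with the arrays scaled to the same spread. The excess over other windows was 1.56 ± 0.60 in K562 and 1.68 ± 0.20 in U2OS (exact permutation p = 0.733). Within the gene-dense set the median difference was -0.25 (quartiles -0.47 and 0.027), where the median over all windows measured was -0.076. The other autosomal windows had a median of -0.064 (quartiles -0.60 and 0.45). Across gene-dense windows the profiles correlated at r = 0.856 between the K562 arrays, 0.783 to 0.969 among U2OS arrays and 0.403 to 0.676 between lines. Windows are not independent replicates, so these are descriptions.

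Window by window, timing differed between the lines at few gene-dense windows. A window was called where limma's adjusted p was under 0.05 and the difference was at least 1 on the log2 scale. By this rule 23 of 589 gene-dense windows (3.9%) were earlier in K562, against 8.72% of all windows, and 10 (1.7%) were later in K562, against 11.6% of all windows. In all 33 called windows the 2 K562 values and the 4 U2OS values did not overlap, and such separation occurred in 39% of gene-dense windows and 42.3% of all windows. In 24 of the 33 the mean was early in one line and late in the other. The required difference of at least 1 favours this, and the share over all called windows was not computed. The count therefore does not set gene-dense windows apart. K562 was early on both arrays and U2OS late on all 4 in 13 gene-dense windows (background 4.6%), and the reverse held in 5 (background 5.4%). The count later in K562 depended on single arrays: 5.77% of gene-dense windows were called without the new-sorting K562 array, and 1.02% or 0.849% without the first or the second automated U2OS array. With normexp background correction 9 of the 33 windows were still called, and with uncorrected signals 4. No slide held both lines, and only the manual U2OS arrays shared a slide, so slide and cell line cannot be told apart.

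**Figure D4:**
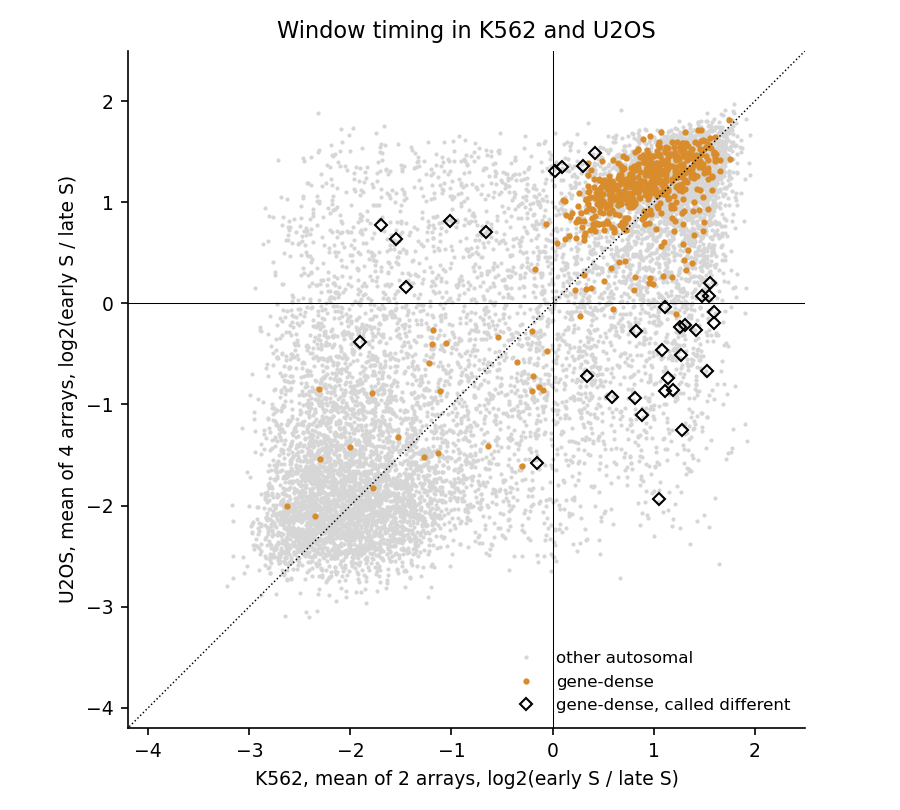
Mean log2(early S / late S) in K562 (horizontal, 2 arrays) against U2OS (vertical, 4 arrays) for autosomal windows; gene-dense windows are orange, the 33 called windows are open diamonds, and the dotted line marks equality. Gene-dense windows gather in the upper right corner, and the called ones lie mainly in the lower right and upper left quadrants.

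Among windows earlier in K562, the largest difference was at chr21:15500001-15750000, with LIPI (a phospholipase), RBM11 (an RNA-binding protein) and HSPA13 (a member of the heat shock family). It read 1.02 and 1.08 in K562, -1.33 and -1.32 on the manual U2OS arrays and -2.63 and -2.48 on the automated ones. K562 was higher by 2.99 (SE 0.45, adjusted p = 0.00396), and within U2OS the automated arrays were lower than the manual ones by 1.23 (adjusted p = 0.0077). Over the 6 arrays, the mean of this window was -0.94, and those of the windows on both sides were -1.40 and -0.96. These means pool the lines, so they do not show whether the neighbours also differed between them.

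The formyl peptide receptor genes FPR1, FPR2 and FPR3, which guide neutrophils and monocytes to bacterial peptides, lie with zinc finger genes at chr19:52250001-52500000. That window read 1.33 and 1.24 in K562 and -1.02, -0.80, -1.72 and -1.48 in U2OS, a difference of 2.54 (SE 0.31, adjusted p = 0.00192). The window before it, chr19:52000001-52250000, holds SIGLEC5, SIGLEC6 and SIGLEC14, sialic acid receptors of leukocytes, and HAS1, a hyaluronan synthase. It read 1.34 and 0.88 in K562 and -0.72, -0.32, -1.33 and -1.1 in U2OS, a difference of 1.98 (SE 0.33, adjusted p = 0.00624). Both lines were on opposite sides of 0 in both windows, which form a single region. Of 7 gene-dense windows with at least 2 leukocyte receptor genes (LILR, KIR, SIGLEC or LAIR), 2 were earlier in K562 (background 8.72%) and 0 later. Those 2, C19orf75 to SIGLEC12 and SIGLEC6 to HAS1, are adjacent, so they count as 1 region. The LILR and KIR windows among the 7 were not called. Early on all 6 arrays were 5, where 84.6% of all gene-dense windows were.

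Natural killer and C-type lectin genes were in the window chr12:9750001-10000000, with KLRB1, KLRF1, CLEC2D and CD69, an early activation marker of lymphocytes. K562 read 1.73 and 1.32, the manual U2OS arrays -0.17 and 0.035, and the automated ones -1.40 and -1.16. The difference was 2.2 (SE 0.46, adjusted p = 0.014), although manual and automated U2OS arrays were themselves 1.21 apart (adjusted p = 0.00882). At chr7:38250001-38500000 lie TARP, a transcript of the T-cell receptor gamma locus, AMPH and STARD3NL, at 0.92 and 0.84 in K562 and -0.96, -0.59, -1.45 and -1.43 in U2OS (difference 1.99, adjusted p = 0.00407).

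Replication-dependent histone genes, which are transcribed in S phase in every dividing cell, were earlier in K562 in part of their cluster on chromosome 6. The window chr6:27750001-28000000 holds HIST1H2AI to HIST1H2BO and OR2B2, and read 1.39 and 1.0 in K562 and -0.78, -0.89, -0.81 and -0.96 in U2OS, a difference of 2.05 (SE 0.21, adjusted p = 0.00124). Of the 4 gene-dense windows with 2 or more histone names, 2 were called earlier in K562 (background 8.72%). In the others the differences were 0.53 at HIST2H2BE to OTUD7B (adjusted p = 0.118) and 0.72 at HIST1H2BI to BTN2A1 (adjusted p = 0.308). The histone window next in size, HIST1H1A to HIST1H4G with the iron regulator HFE, differed by 1.76 (adjusted p = 0.0147). Zinc finger windows in the same stretch of chromosome 6 were also called earlier in K562. They were FKSG83 to ZNF184 (difference 1.79, limma's adjusted p = 0.0183) and ZNF165 to ZNF187 (1.48, adjusted p = 0.0205). The difference there was thus not particular to histone genes.

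The remaining 17 windows called earlier in K562 had differences down to 1.06. They included, chosen here after their values were seen, a pair with the GIMAP genes, GTPases of lymphocytes (differences of 1.68 and 1.36), and a pair with the AKR1C genes, aldo-keto reductases of steroids (1.78 and 1.53). Of the named windows, KLRB1 to KLRF1 and SIGLEC6 to HAS1 did not pass with normexp (limma's adjusted p = 0.0632 and 0.0552). With uncorrected signals these did not pass either (0.0975 and 0.0755), nor did HIST1H2AI to OR2B2 (0.0571) and STARD3NL to AMPH (0.0582). In all 23 the smaller K562 array, used for no call, read above the U2OS mean, whereas over all gene-dense windows it did in 16%. It also read above 0 in all 23, from 0.11 to 1.74, but so did 91.2% of gene-dense windows.

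**Figure D5:**
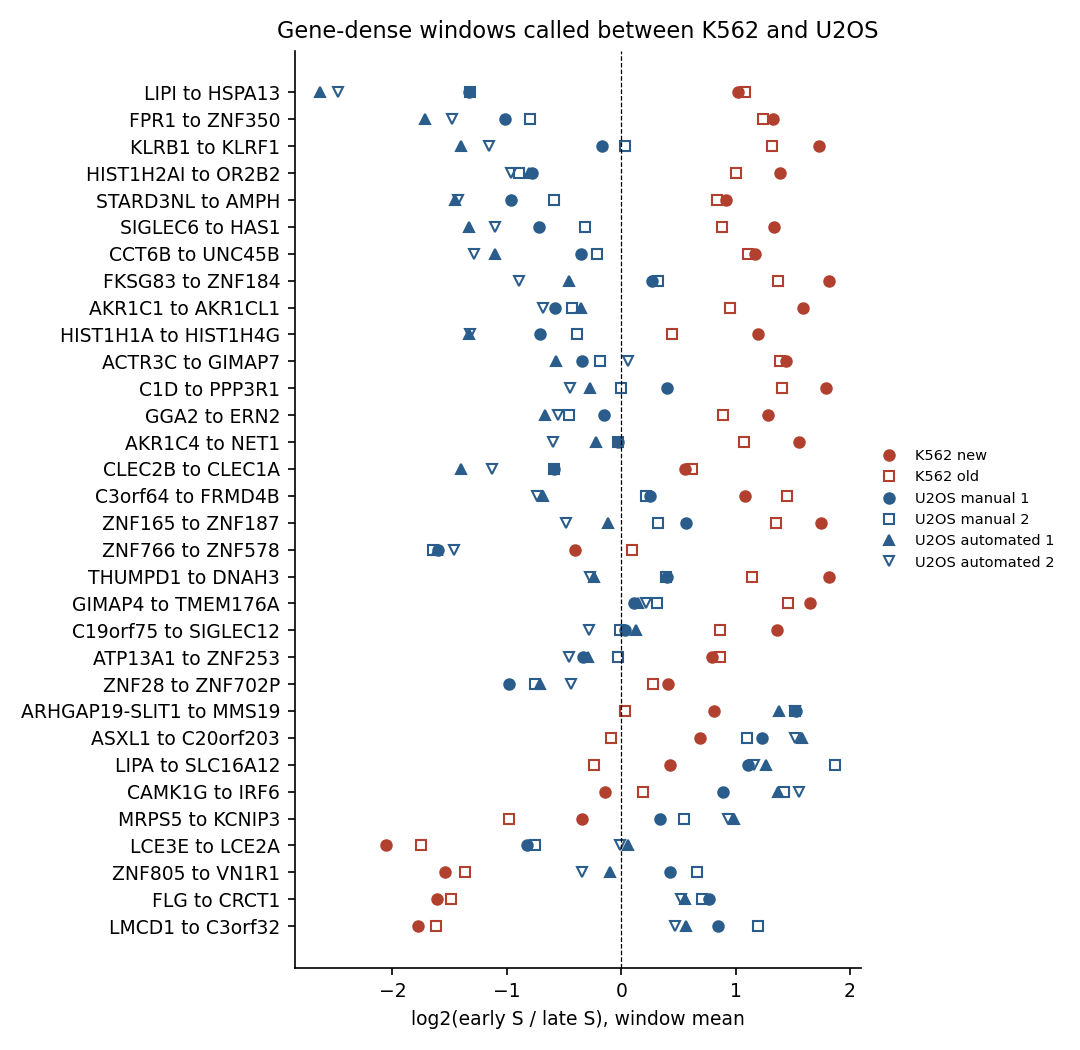
Window mean of log2(early S / late S) on the horizontal axis for 32 of the 33 gene-dense windows called between the lines, ordered by the difference and named by their outermost RefSeq-matched genes; K562 arrays are red and U2OS arrays blue. In 23 windows K562 lies to the right of every U2OS array, and in 9 to the left.

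Windows that were later in K562 included epidermal genes. The largest difference was at chr3:8500001-8750000, with LMCD1, a LIM-domain transcription cofactor. It read -1.78 and -1.62 in K562 and 0.85, 1.20, 0.57 and 0.47 in U2OS, so K562 was late and U2OS early on every array (difference -2.48, SE 0.27, adjusted p = 0.00141). Only 3 of its 8 names matched RefSeq.

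In the epidermal differentiation complex, a cluster of genes for the outer skin layer, timing split by gene and line. The window chr1:152250001-152500000, with FLG, FLG2, CRNN (cornulin) and LCE5A, read -1.61 and -1.49 in K562 and 0.77, 0.71, 0.56 and 0.52 in U2OS, a difference of -2.19 (SE 0.20, adjusted p = 0.000942). Next to it, chr1:152500001-152750000 with LCE2 and LCE3 genes of the late cornified envelope read -2.06 and -1.75 in K562, -0.82 and -0.75 on the manual U2OS arrays, and 0.056 and -0.0083 on the automated ones. The difference there was -1.52 (SE 0.33, adjusted p = 0.0176, but 0.052 without the second automated U2OS array and 0.0981 without dim probes), and with uncorrected signals it was -0.88, under the minimum of 1. The third neighbour, from LCE1E to SPRR3 with the envelope protein gene IVL, was late on all 6 arrays with a mean of -0.80, and its difference of -0.63 did not pass (adjusted p = 0.16). A further window with S100A5 to INTS3, counted here through its S100A genes, had means of 1.04 in K562 and 0.94 in U2OS. Of the 4 gene-dense cornified envelope windows, 2 were thus later in K562 (background 11.6%), 1 was late on all 6 arrays (background 42%) and 1 was early on all 6 (background 31.3%).

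Zinc finger clusters went both ways between the lines. Of the 48 zinc finger windows, 6 were earlier in K562 (background 8.72%) and 2 later (background 11.6%). The window chr19:57750001-58000000, from ZNF805 to VN1R1, read -1.54 and -1.37 in K562, 0.43 and 0.66 on the manual U2OS arrays, and -0.097 and -0.34 on the automated ones (difference -1.62, adjusted p = 0.0125, but 0.114 without dim probes and 0.0735 with uncorrected signals). The window chr2:95750001-96000000 holds ZNF514, ZNF2 and MRPS5, a mitochondrial ribosomal protein. Its values were -0.34 and -0.98 in K562 and 0.34, 0.55, 0.99 and 0.93 in U2OS (difference -1.36, adjusted p = 0.0172, but 0.0524 and 0.0565 without the first and the second automated U2OS array). Its adjusted p was 0.288 without dim probes, 0.0743 with normexp and 0.106 with uncorrected signals. On the smaller K562 array all 10 windows called later in K562 read below the U2OS mean, where 84% of gene-dense windows did. Of the 10, 6 read below 0, where 8.83% of gene-dense windows did.

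How many gene-dense windows differed between manual and automated U2OS arrays depended on the processing. The labels call 2 arrays manual and 2 automated and do not say which step this refers to, and both manual arrays lay on a single slide, so handling cannot be told apart from slide. With limma, 31 gene-dense windows (5.26%) were earlier on the automated arrays, against 3.76% of all windows, and 24 (4.07%) were later, against 12.7% of all windows. Over all windows the median difference was -0.18, and over gene-dense windows it was 0.080. These counts were not stable: 0% were called earlier without either automated array, 13.1% without the first manual array, and only 0.34% or 0.679% were called later without the first or the second automated array. The split of calls also moved with the scale, from 31 earlier and 24 later to 12 and 26 when the arrays were scaled to the same spread, and to 68 and 13 when they were centred on the mean. With normexp it was 450 earlier and 36 later, and with uncorrected signals 402 and 37.

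The pair of gene-dense windows with the largest shift to earlier values on the automated arrays both lay within 5 Mb of a chromosome end. The window chr19:500001-750000, with the cell-cycle enzyme gene CDC34, BSG and POLRMT, read 0.57 and 0.24 by manual handling and 1.39 and 1.40 by automated handling (difference 0.99, SE 0.18, adjusted p = 0.0143). At chr1:750001-1000000, with AGRN and NOC2L, the values were 0.64 and 0.22 against 1.53 and 1.26 (difference 0.96, adjusted p = 0.0208). Both calls were lost without either automated array, with adjusted p from 0.0643 to 0.191, and on the dimmest array 0% and 6.67% of the probes in these windows were well above background in both channels. The largest change in the other direction was at chr11:5500001-5750000, with TRIM5 and TRIM22, restriction factors against retroviruses, at 0.42 and 1.1 by manual handling and -0.98 and -0.95 by automated handling (difference -1.73, adjusted p = 0.0077). In K562 that window was early, at 1.31 and 1.13.

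New and old sorting of K562 were represented by 1 array each, and no test was made. The gene-dense median was higher with the new sorting by 0.34, and the other autosomal windows were lower by 0.23. The SD over those windows was 1.88 with the new sorting and 1.19 with the old, and its part in the difference was not tested. With all arrays scaled to the same spread the gene-dense difference turned to -0.13, and without dim probes it was 1.55. The arrays were on opposite sides of 0 in 29 of 589 gene-dense windows (4.92%) and in 6.58% of the others.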

How the data were processed

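Window members, gene families and tests were chosen with earlier results of these data known. The deposited files are scanner output of 7 two-colour arrays, 6 of a larger design (180880 features in each file; the K562 titles say 180k) and 1 smaller (titled 44k). Per the file headers they came from Feature Extraction 11.5.1.1 with probe positions on hg19, whereas the submitters' processing notes name Agilent Feature Extraction 9.1. The deposited log10 ratio is late (Cy5) over early (Cy3), computed by the scanner software from background-subtracted, dye-normalised intensity. No array swapped the dyes, so a dye effect cannot be told apart from timing. The deposited spot intensity and local background entered the alternatives only.

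Ratios were turned to log2 of early over late. Control, non-uniform, manually excluded and saturated spots were left out (at most 24 saturated probes per array). The median probe of chromosomes 1 to 22 and X was set to 0 on each array, and probes were averaged by midpoint in 250-kb windows with at least 3 probes on every array, which gave 11175 windows. Windows were compared with limma 3.58.1 in R 4.3.3 and Benjamini-Hochberg adjustment over all of them. Single values per array were compared with exact sign-flip and permutation tests over every regrouping, written in Python 3.11.15 with numpy 2.4.6. The scripts were tested on simulated data. The number of arrays limits the precision.

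A family was counted in a window holding at least 2 of its names. Windows named are the 12 latest and 5 earliest on all 6 arrays, 6 per direction between lines, 2 per direction between handlings, and the one with the most names, each the largest by mean or difference. Adjacent windows count as 1 region. A window later in K562 is not reported here, so 5 are named in that direction; it stays in the counts. Family windows and those said to be chosen after their values were seen are further. Alternatives covered background correction, loess, dim probes, scaling, centring, gene and probe minimums, the window grid, handling and arrays left out; those leaving out ratios of exactly 0 or counting RefSeq names only were chosen after seeing the data.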

Additional observations from a re-analysis of the deposited data

Results flagged for a closer look

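Among 34 sets of 4 U2OS values checked, 1 held an array far from the other 3 by Dixon's ratio, where chance gives about 1 in 20. In the KRTAP13-1 to KRTAP22-2 window the first automated array read -2.18 against -1.97 to -1.93 (ratio 0.845).

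In 16 gene-dense windows called between the lines, K562 and U2OS lay on opposite sides of 0 on every array. The differences, K562 minus U2OS on the log2 scale, were tested with limma for each window. K562 was early and U2OS late in 13 of them. The difference was 2.99 at LIPI to HSPA13, 2.54 at FPR1 to ZNF350, 2.05 at HIST1H2AI to OR2B2, 1.99 at STARD3NL to AMPH and 1.98 at SIGLEC6 to HAS1. It was 1.88 at CCT6B to UNC45B, 1.78 at AKR1C1 to AKR1CL1, 1.76 at HIST1H1A to HIST1H4G, 1.54 at GGA2 to ERN2 and 1.53 at AKR1C4 to NET1. It was 1.52 at CLEC2B to CLEC1A, 1.11 at ATP13A1 to ZNF253 and 1.06 at ZNF28 to ZNF702P. K562 was late and U2OS early in 3, with -2.48 at LMCD1 to C3orf32, -2.19 at FLG to CRCT1 and -1.36 at MRPS5 to KCNIP3.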

How the results depend on the processing

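Percentages are of gene-dense windows, and the cause of a change was not tested unless fewer arrays or windows entered. Of 511 values of named windows under alternatives, 490 kept direction and side of the threshold, 21 no longer passed and 0 reversed. Named windows were the most extreme, and late and early ones were scored there by limma's mean against 0. By the every-array rule, 10 of 18 late windows stayed late without dim probes and 11 of 19 with centring on the window median. Of all 33 windows called between lines, 9 were kept with normexp and 4 with uncorrected signals. Earlier in K562 (3.9%) became 0.679% with normexp, 0.34% with uncorrected signals, 1.9% with at least 10 names, 2.03% with RefSeq names only and 0.679% with manual U2OS arrays only. Later in K562 (1.7%) became 0.849%, 0.34%, 0.38%, 0.678% and 0.679% in that order, 0.562% without dim probes and 4.32% with at least 6 names. Late on every array (3.23%) became 1.87% with centring on the window median, 1.52% with at least 10 names and 0.678% with RefSeq names only, and a mean below 0 (4.24%) became 2.38%, 2.28% and 1.02%. Early on every array became 46.6% without dim probes.

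Automated earlier (5.26%) became 76.4% with normexp, 68.3% uncorrected, 14.8% with loess, 1.97% without dim probes, 2.04% scaled, 11.5% centred on the mean, 3.26% with at least 6 names, 8.32% with at least 8 probes and 0% with a difference of at least 1. Automated later (4.07%) became 6.28% uncorrected, 2.55% with loess, 15.4% without dim probes, 2.04% and 2.21% centred on the window median and the mean, 6.82% and 2.28% with at least 6 and 10 names, 2.55% without zero ratios, 2.37% with RefSeq names only and 1.19% when differences under 1 were not counted. With the replicate number as a block, automated earlier was 9.17%. Over windows, same-numbered arrays' deviations from their handling means correlated at -0.0434. With 2 arrays per handling this cannot say whether a number marks a shared culture. New minus old K562 (0.34) was 0.42 with normexp, 1.55 without dim probes, 0.65 and 0.68 centred on the window median and the mean, 0.22 without zero ratios, and -0.13 scaled, the only reversal.

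Leaving out each array in turn gave 1.57 to 1.74 for gene-dense minus other windows (5 arrays cannot pass the sign-flip test), 0.849% to 5.77% for later in K562, 0% to 13.1% for automated earlier and 0.34% to 5.43% for automated later; a lone array was assumed to vary like the other groups. The slide as a random block could not be fitted. Dim late-channel signal in gene-dense windows limits the precision of the manual U2OS and K562 arrays.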
